A study of Mus musculus with 8 samples.

Results

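The genes described here encode voltage-gated calcium channels and the channels and sensors that release or refill the calcium of the sarcoplasmic reticulum. They were taken by symbol from the deposited counts: every symbol that starts with Cacna, Cacnb or Cacng, together with the ryanodine receptors (Ryr), the inositol trisphosphate (IP3) receptors (Itpr), the STIM sensors and the ORAI channels. This gave 37 of the 38926 gene symbols, of which 10 encode pore subunits, 16 auxiliary subunits and 11 proteins of store release or store-operated entry. PolyA RNA of mouse bladder was sequenced in 8 libraries, 4 from a nerve-sparing surgical model of partial bladder outlet obstruction (NeMO) and 4 from sham-operated controls (Sham). The libraries held 27212499 to 36375313 counted reads. Strain, sex, age, genotype and the time after surgery are not given in the labels used here, nor is it stated that each library is a separate animal, so p-values measure the spread between these libraries. A mark in the submitted file names puts NeMO replicates 1 and 3 and Sham replicates 1, 2 and 3 in batch 1, and NeMO replicates 2 and 4 and Sham replicate 4 in batch 2.

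Bladder contraction starts with a rise of calcium inside the smooth muscle cell. Calcium enters through voltage-gated channels, whose pore subunit is shaped and carried to the membrane by beta and alpha2delta subunits, and is released from the sarcoplasmic reticulum through IP3 receptors and ryanodine receptors. STIM proteins sense that the store is empty and open ORAI channels in the cell membrane, which refills it.

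Levels are given in CPM, read counts scaled to a common library size, and 24 of the 37 members had a mean of at least 1 CPM. Among these 24, the largest fold change between the groups, in either direction, was that of Ryr2, the ryanodine receptor best known from the heart, which was at 3.82 ± 1.68 CPM (SD, n = 4) in NeMO and 8.83 ± 2.41 CPM in Sham. Cacnb2, a beta subunit, was also lower in every NeMO library than in every Sham library, while Itpr1, an IP3 receptor, and Cacng7, a gamma subunit, were higher in every NeMO library. Levels of the L-type pore gene Cacna1c and the T-type pore gene Cacna1g were higher on average in NeMO, with some libraries overlapping. No member passed edgeR's quasi-likelihood test, fitted to all genes with batch as a term (0 of 28 tested at an adjusted p of 0.05), against a background of 0.0733% of the 16370 genes tested. By the same test without adjustment, 6 of 28 members (21.4%) had p under 0.05, against 18.5% of all genes. The 4 higher members were Cacna1c, Cacna1g, Cacng7 and Itpr1, with a background of 9.38% of genes higher, and the 2 lower members were Cacnb2 and Ryr2, with a background of 9.14% lower. DESeq2 called 3 of 28 (10.7%), Cacna1g and Itpr1 higher and Ryr2 lower, where it called 5.82% of all genes. The groups did not overlap for 4 of 28 members (14.3%), against 8.19% of all genes. Of these, 2 members were higher in NeMO, with a background of 4.39%, and 2 were lower, with a background of 3.81%. In whole bladder RNA, fewer cells of a type and less RNA per cell cannot be told apart.

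**Figure D1:**
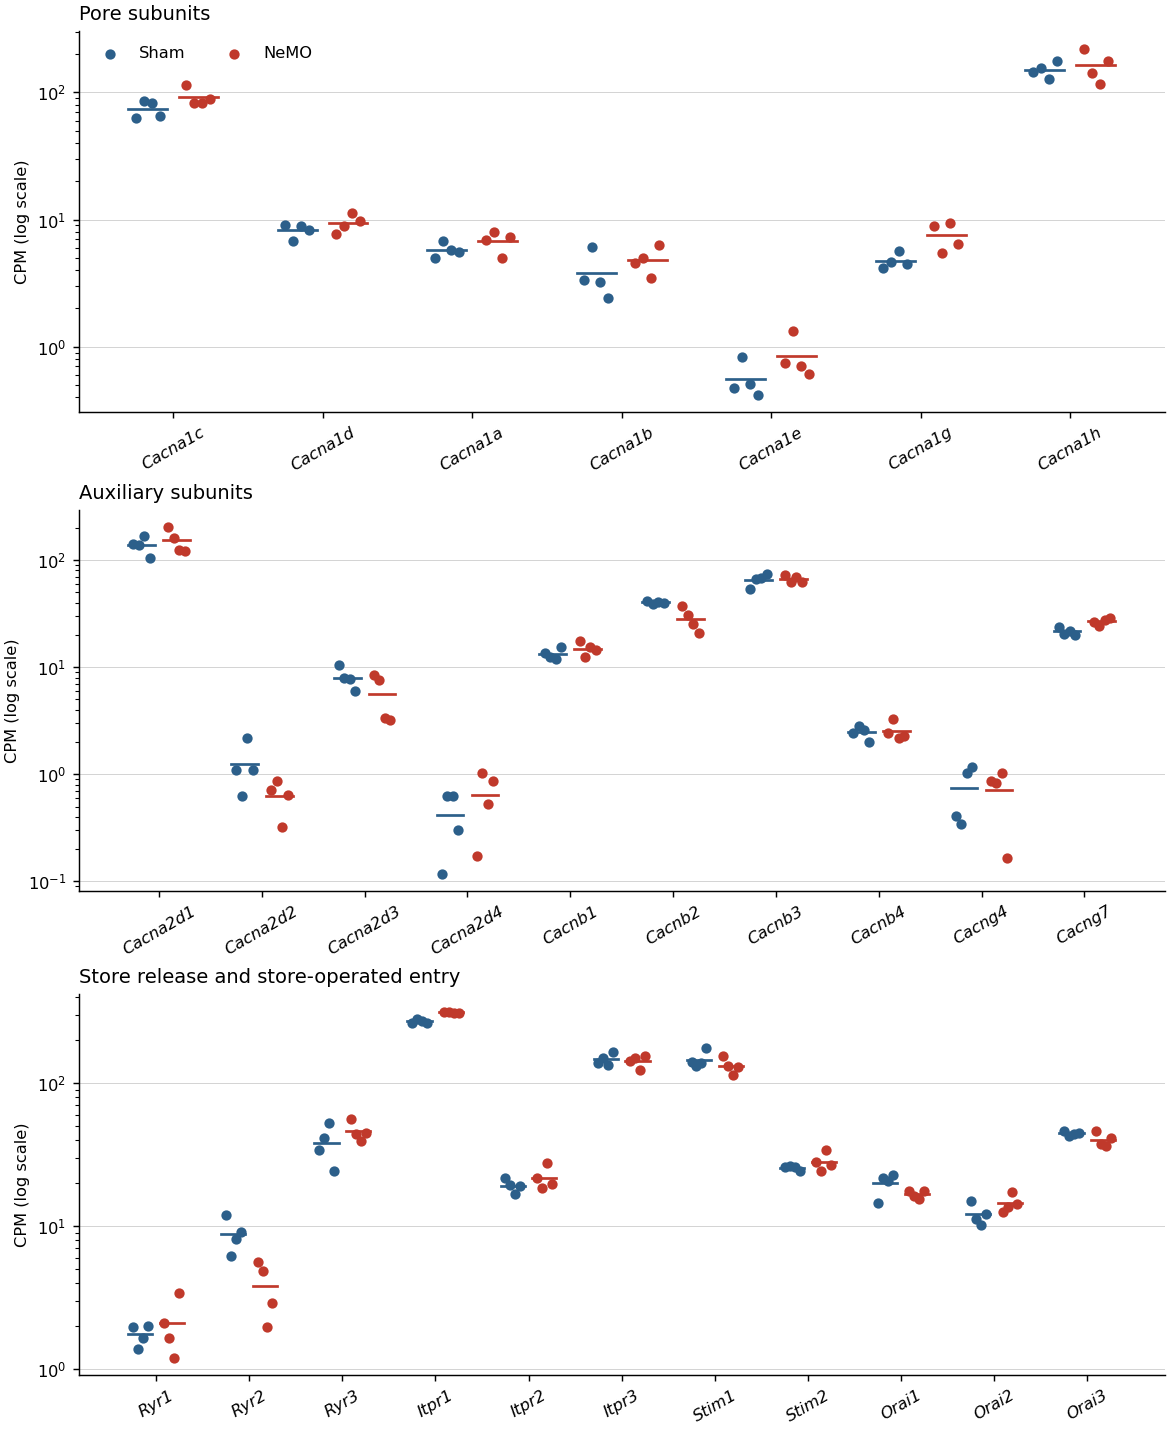
Levels in CPM (log scale) of the 28 tested members in each library, in panels for pore, auxiliary and store genes. Points are libraries in replicate order (blue, Sham; red, NeMO), short lines are group means, n = 4 per group. The points of Ryr2 and Cacnb2 are lower in all NeMO libraries than in all Sham libraries, and those of Itpr1 and Cacng7 are higher.

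Of the genes whose groups did not overlap, RefSeq promoter windows (GRCm38.p6) were at hand for Ryr2, Cacnb2 and Cacng7, and 29 of the 37 members had an entry in all. They are shown so that the start regions of these 3 genes can be set beside their levels. Each line gives the 250 bases before a transcription start, 5′ to 3′ on the gene's strand, with capitals marking a match to one of 6 motifs searched on both strands: the CArG box, the MEF2 site, TATAAA (the TATA box), GGGCGG (the GC box of Sp factors), CACGTG (an E-box) and TGACGTCA (the cAMP response element). The windows are chr13:12106946-12107195 (minus strand) for Ryr2, chr2:14604056-14604305 and chr2:14823842-14824091 (plus strand) for the 2 starts of Cacnb2, and chr7:3332575-3332824 (plus strand) for Cacng7.
Ryr2: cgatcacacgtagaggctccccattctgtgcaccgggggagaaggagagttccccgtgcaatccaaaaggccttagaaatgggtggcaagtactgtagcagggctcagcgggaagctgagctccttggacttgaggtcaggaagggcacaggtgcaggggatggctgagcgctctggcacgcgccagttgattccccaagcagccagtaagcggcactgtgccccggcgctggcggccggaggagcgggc
Cacnb2 start 1: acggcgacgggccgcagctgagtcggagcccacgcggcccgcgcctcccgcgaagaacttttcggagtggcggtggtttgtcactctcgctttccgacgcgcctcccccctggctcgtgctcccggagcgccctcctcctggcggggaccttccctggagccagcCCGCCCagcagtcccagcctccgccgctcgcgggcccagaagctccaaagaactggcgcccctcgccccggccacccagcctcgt
Cacnb2 start 2: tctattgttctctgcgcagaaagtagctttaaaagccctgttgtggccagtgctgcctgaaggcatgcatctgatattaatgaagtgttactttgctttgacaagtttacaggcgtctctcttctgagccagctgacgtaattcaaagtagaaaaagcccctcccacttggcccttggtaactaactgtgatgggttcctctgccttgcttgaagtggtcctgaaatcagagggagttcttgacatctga
Cacng7: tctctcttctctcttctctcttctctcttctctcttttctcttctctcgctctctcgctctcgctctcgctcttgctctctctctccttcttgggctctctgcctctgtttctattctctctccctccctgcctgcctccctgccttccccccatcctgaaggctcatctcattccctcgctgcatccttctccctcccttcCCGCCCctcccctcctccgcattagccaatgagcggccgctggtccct
The first window of Cacnb2 holds GGGCGG once, on the opposite strand, from 85 to 80 bases before the start, and that of Cacng7 holds it from 48 to 43 bases before the start. GGGCGG is present in 32.7% of the 32817 promoter windows of this length, so a match is common. None of the 6 motifs is in the window of Ryr2 or in the second window of Cacnb2. The other motifs are present in 1.47% (CArG box), 2.92% (MEF2 site), 12.4% (TATAAA), 6.02% (CACGTG) and 1.55% (TGACGTCA) of the windows. The G and C share is 63.2% for Ryr2, 73.2% and 46.0% for the 2 starts of Cacnb2 and 58.0% for Cacng7, against a median of 52.4%.

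Among the pore subunits, the L-type channel Cacna1c (chr6:118587240-119196418, minus strand), the main voltage-gated entry route of smooth muscle, was at 114, 83.1, 82.3 and 89.0 CPM in NeMO replicates 1 to 4 and at 62.3, 85.9, 82.8 and 65.6 CPM in Sham replicates 1 to 4. The groups overlapped, and NeMO replicate 1 was the highest library. The log2 fold change of NeMO over Sham was 0.36 ± 0.13 (SE; edgeR adjusted p = 0.200), and 0.24 without NeMO replicate 1. With a correction for length and GC content it was 0.21, and Cacna1c then no longer had an unadjusted p under 0.05. The smooth muscle marker genes summed to 52631 CPM in that library and to 28592 to 46788 CPM in the others, and their part in the level of Cacna1c was not tested. Cacna1d, the other L-type pore gene above 1 CPM, was at 7.74, 8.91, 11.2 and 9.71 CPM in NeMO and at 9.04, 6.72, 8.86 and 8.28 CPM in Sham, with overlapping groups and a log2 fold change of 0.19 ± 0.17. Chdh, on the opposite strand, shares 4.67% of the exon length of Cacna1d, and the strand setting of the counting is not given in the sources used here. In all, 14 members share exon bases with a gene on the opposite strand, and not all are named below. They include Ryr1 (3.96% with Gm26604) and Cacna1h (1.62% with Tpsg1).

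The T-type channels open at more negative voltages than the L-type channels. Cacna1h (chr17:25374285-25433783), which carried most of the pore reads per length, was at 221, 142, 117 and 175 CPM in NeMO and at 144, 154, 128 and 177 CPM in Sham. These ranges overlapped fully, and the log2 fold change was 0.10 ± 0.20 (edgeR adjusted p = 0.825). It was -0.15 in batch 2 alone and -0.22 without NeMO replicate 1. Cacna1g (chr11:94408391-94474198), the other T-type pore gene tested, was at 8.86, 5.46, 9.35 and 6.42 CPM in NeMO and at 4.18, 4.61, 5.66 and 4.48 CPM in Sham. The only overlap was NeMO replicate 2 below Sham replicate 3. Its log2 fold change was 0.74 ± 0.18 (edgeR adjusted p = 0.103), and DESeq2 gave an adjusted p of 0.00619. Within batches the log2 fold change of Cacna1g was 0.92 in batch 1 and 0.42 in batch 2, where a single Sham library stands against 2 NeMO libraries.

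The P/Q-, N- and R-type pore genes, best known from nerve terminals, were at low levels. Cacna1a was at 6.91, 7.98, 5.01 and 7.25 CPM in NeMO and at 4.98, 6.75, 5.78 and 5.55 CPM in Sham. Cacna1b was at 4.53, 5.0, 3.47 and 6.28 CPM in NeMO and at 3.36, 6.09, 3.23 and 2.39 CPM in Sham. Neither separated the groups, with log2 fold changes of 0.18 ± 0.19 and 0.36 ± 0.34, and that of Cacna1b was -0.08 in batch 1 alone. Cacna1e had means of 0.844 CPM in NeMO and 0.557 CPM in Sham (log2 fold change 0.57 ± 0.43). The 8 neuronal marker genes were all lower in NeMO (summed 198 to 369 CPM in NeMO, 340 to 427 CPM in Sham, most of it Uchl1). Of the 8, 0 passed edgeR and 2 were lower at an unadjusted p under 0.05, against 9.14% of all genes lower. DESeq2 called 1 of the 8 lower, where it called 410 of the 16370 genes tested lower. The part of these markers in the levels of these pore genes was not tested. The pore genes as a group were higher in NeMO for 7 of 7 tested members. Their log2 fold changes had a median of 0.36, beside -0.01 over all genes, of which 48.3% were higher. The longest transcript of each of the 7 is above 6134 nucleotides, and all genes from that length up had a median log2 fold change of 0.16. The pore median was 0.21 with the length and GC correction. The direction of Cacna1b and Cacna1h turned within 1 batch, as given above.

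Among the auxiliary subunits, the alpha2delta gene Cacna2d1, whose product helps place the channel at the membrane, was at 201, 160, 125 and 122 CPM in NeMO and at 142, 136, 168 and 104 CPM in Sham. The groups overlapped, and the log2 fold change was 0.24 ± 0.17. Cacna2d3, a less abundant member of that family, was at 8.40, 7.58, 3.35 and 3.21 CPM in NeMO and at 10.4, 7.86, 7.69 and 5.93 CPM in Sham (log2 fold change -0.41 ± 0.36). NeMO replicates 3 and 4 were below every Sham library, while replicates 1 and 2 were not. Cacna2d2, Cacna2d4 and Cacng4 were near or below 1 CPM, and their log2 fold changes ran from -1.05 ± 0.49 for Cacna2d2 to 0.29 ± 0.69 for Cacna2d4, with no edgeR adjusted p under 0.290.

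The beta subunits bind the pore from inside the cell. Cacnb2 (chr2:14603088-14987908, plus strand), the beta subunit known from cardiac L-type channels, was at 36.9, 30.8, 25.1 and 20.8 CPM in NeMO and at 41.4, 38.8, 40.9 and 39.4 CPM in Sham. The 4 Sham libraries lay close together and above all 4 NeMO libraries, which were more spread. The log2 fold change of Cacnb2 was -0.46 ± 0.15 (edgeR adjusted p = 0.176, DESeq2 adjusted p = 0.0851). Without NeMO replicate 1 it was -0.65 with an edgeR adjusted p of 0.0423, and it was -0.35 without NeMO replicate 3. Leaving out NeMO replicate 1 raised the genes past the threshold in general, to 652 of 16621 from 12 of 16370. Opposite-strand genes share 4.67% (Gm10849), 1.81% (Gm13269) and 0.839% (Gm10848) of the exon length of Cacnb2. Cacnb3, the most abundant beta subunit per length, was at 72.7, 62.2, 69.1 and 62.0 CPM in NeMO and at 54.2, 66.3, 67.9 and 74.2 CPM in Sham (log2 fold change 0.02 ± 0.11). Cacnb1, known as the beta subunit of skeletal muscle, was at 17.6, 12.4, 15.3 and 14.4 CPM in NeMO and at 13.4, 12.3, 11.9 and 15.3 CPM in Sham (log2 fold change 0.18 ± 0.14). Neither separated the groups, and in batch 2 alone the log2 fold changes were -0.25 for Cacnb3 and -0.18 for Cacnb1. Cacnb4 was at 2.44, 3.25, 2.18 and 2.27 CPM in NeMO and at 2.44, 2.80, 2.60 and 2.01 CPM in Sham, a log2 fold change of 0.04 ± 0.24 that was -0.13 after the length and GC correction. A430018G15Rik, on the opposite strand, shares 16% of its exon length.

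Gamma subunits differ in role: some accompany muscle calcium channels and others guide glutamate receptors in nerve cells. Cacng7 (chr7:3332955-3368221, plus strand), of the second kind, was at 26.5, 24.1, 27.5 and 29.0 CPM in NeMO and at 23.8, 20.5, 21.9 and 19.9 CPM in Sham. Every NeMO library was above every Sham library, by a narrow margin between NeMO replicate 2 and Sham replicate 1. Its log2 fold change was 0.33 ± 0.10 (edgeR adjusted p = 0.139), 0.46 with the length and GC correction, and from 0.29 to 0.38 when single libraries were left out. Over the 10 auxiliary members tested the median log2 fold change was 0.03, with 6 higher and 4 lower.

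Of the release channels, Ryr2 (chr13:11553102-12106945, minus strand) was at 5.59, 4.83, 1.98 and 2.88 CPM in NeMO and at 11.99, 6.20, 8.11 and 9.04 CPM in Sham. All 4 NeMO libraries were below all 4 Sham libraries. The log2 fold change was -1.22 ± 0.36 (edgeR adjusted p = 0.145, DESeq2 adjusted p = 0.0144), from 68 to 407 reads per library. It was -1.21 in batch 1 and -1.22 in batch 2. Without NeMO replicate 1 the log2 fold change was -1.69 with an edgeR adjusted p of 0.0430, and without NeMO replicate 3 it was -0.92. Leaving out NeMO replicate 1 let 652 of 16621 genes pass, against 12 of 16370 with all libraries. Summed smooth muscle markers overlapped between the groups (28592 to 52631 CPM in NeMO, 33484 to 45495 CPM in Sham). NeMO replicate 3 had the lowest sum and the lowest Ryr2. NeMO replicate 1 had the highest sum, with Ryr2 below every Sham library. Sham replicate 1 had the lowest Sham sum and the highest Ryr2. The part of these markers in the level of Ryr2 was not tested.

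Ryr3, the ryanodine receptor with the highest level per length here, was at 56.6, 44.1, 39.6 and 44.6 CPM in NeMO and at 34.1, 41.3, 52.5 and 24.2 CPM in Sham. The groups overlapped, and its log2 fold change of 0.41 ± 0.20 (edgeR adjusted p = 0.318) was 0.17 in batch 1 and 0.88 in batch 2. Aven, on the opposite strand, shares 4.83% of the exon length of Ryr3. Ryr1, the release channel of skeletal muscle, was at 2.09, 1.66, 1.19 and 3.40 CPM in NeMO and at 1.97, 1.39, 1.65 and 2.01 CPM in Sham, with a log2 fold change of 0.10 ± 0.33 that was -0.03 after the length and GC correction. The skeletal muscle marker list summed to 714 to 1259 CPM in NeMO and 779 to 1049 CPM in Sham, most of it Acta1. Over all libraries Ckm was at 59.2 to 201 CPM, Tnnt3 at 7.34 to 43.8 CPM and the myosin Myh2 at 0.718 to 28.1 CPM. Myh1, Mylpf and Actn3 were between 0.0860 and 5.33 CPM. The fast myosin Myh4 was at 0 in 3 libraries and between 0.0291 and 2.70 CPM in the others. The part of these markers in the level of Ryr1 was not tested.

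IP3 receptors release calcium after muscarinic and other receptors activate phospholipase C. Itpr1 (chr6:108213096-108551109, plus strand), the highest of all members by CPM, was at 315, 318, 312 and 312 CPM in NeMO and at 265, 281, 274 and 262 CPM in Sham. The libraries of each group lay close together, and the groups did not overlap. The log2 fold change was 0.22 ± 0.07 (edgeR adjusted p = 0.149, DESeq2 adjusted p = 0.0126). It was 0.08 with the length and GC correction, with an edgeR adjusted p of 0.682 and an unadjusted p above 0.05. Itpr3 was at 142, 150, 123 and 156 CPM in NeMO and at 138, 149, 135 and 165 CPM in Sham (log2 fold change -0.09 ± 0.07). Itpr2 was at 21.8, 18.4, 27.6 and 19.6 CPM in NeMO and at 21.9, 19.3, 16.6 and 18.95 CPM in Sham (log2 fold change 0.23 ± 0.13). Both of these receptors overlapped between the groups.

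Stim1, the main store sensor, was at 155, 132, 115 and 129 CPM in NeMO and at 140, 132, 138 and 175 CPM in Sham (log2 fold change -0.16 ± 0.11). Stim2, the sensor of smaller store losses, was at 28.1, 24.4, 34.1 and 26.6 CPM in NeMO and at 25.8, 26.2, 25.8 and 24.5 CPM in Sham (log2 fold change 0.19 ± 0.09). Neither sensor separated the groups. Orai1, the store-operated pore, was at 17.6, 16.1, 15.4 and 17.5 CPM in NeMO and at 14.6, 21.8, 20.7 and 22.8 CPM in Sham, where Sham replicate 1 alone was below the NeMO libraries (log2 fold change -0.28 ± 0.14, edgeR adjusted p = 0.319). Orai2 was at 12.5, 13.6, 17.2 and 14.3 CPM in NeMO and at 14.96, 11.2, 10.2 and 12.2 CPM in Sham, with a log2 fold change of 0.26 ± 0.16. The level of Orai3 was 45.9, 37.6, 36.4 and 41.5 CPM in NeMO and 45.9, 43.0, 44.1 and 45.0 CPM in Sham, a log2 fold change of -0.14 ± 0.09. Over the 11 store genes the median log2 fold change was 0.10, with 6 higher and 5 lower, and it was -0.01 with the length and GC correction.

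**Figure D2:**
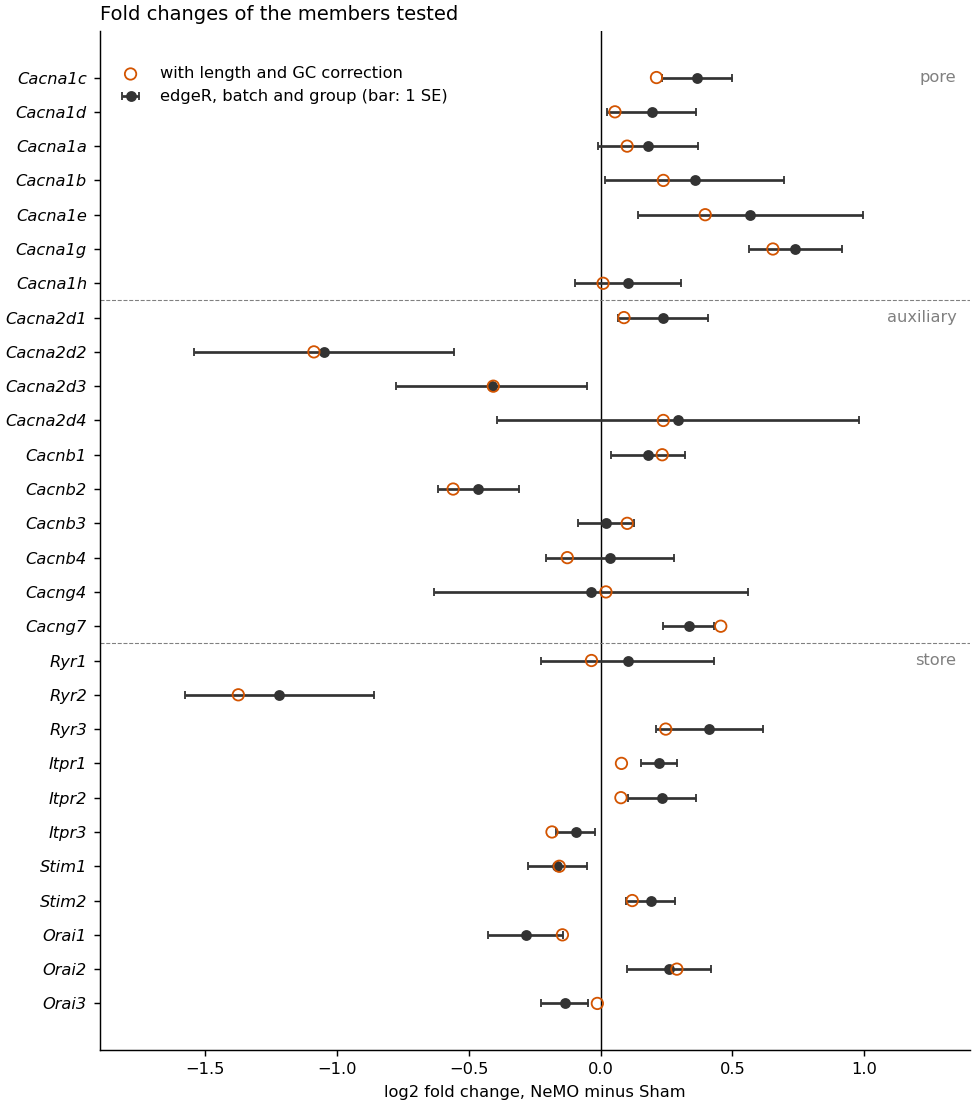
Log2 fold change of NeMO minus Sham for the 28 tested members, in the order pore, auxiliary and store. Filled points are edgeR estimates with bars of 1 SE and open circles are the estimates corrected for length and GC. The 7 pore genes lie right of 0 and Ryr2 is the leftmost, at -1.22.

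The remaining 9 members were too low to test. They were the L-type genes Cacna1f and Cacna1s, the T-type gene Cacna1i and the gamma genes Cacng1, Cacng2, Cacng3, Cacng5, Cacng6 and Cacng8, with 0 to 23 reads per library and at most 0.637 CPM. Cacng6 had 1 read over the 8 libraries together, in Sham replicate 1. A count of 0 in a library allows up to 3 reads, or 0.0830 to 0.114 CPM, by counting error only. Cacna1s and Cacng1 encode the pore and gamma subunits of the skeletal muscle channel, Cacna1f the L-type pore known from the retina.

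Levels between genes were compared per kilobase of the longest annotated transcript, as mean CPM per kb over the 8 libraries. Stim1 (32.0 CPM per kb), Itpr1 (29.6), Cacnb3 (24.2), Orai3 (19.8), Cacna2d1 (19.5), Cacna1h (19.1) and Itpr3 (16.1) were the upper 7, and Itpr3 was above the next gene, Cacng7 (10.9), in every library. No neighbours among these 7 differed beyond their spread over libraries. When the length was set as the union of all annotated exons, the same 7 genes were highest, and Stim1 moved from place 1 to place 6. Lower were Cacnb2 at 6.81, Cacna1c at 6.32, Ryr3 at 2.72, Cacna1g at 0.731 and Ryr2 at 0.376 CPM per kb.

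As shares of the per-length level of each family, Cacna1h made up 65.2% ± 4.14 (SD, n = 4) of the pore genes in NeMO and 68.7% ± 4.89 in Sham, and Cacna1c 23.4% ± 2.11 and 21.3% ± 3.80. These overlapped between the groups. Cacnb2 was 13.2% to 18.6% of the beta subunits in NeMO and 19.7% to 25.5% in Sham, without overlap, while Cacnb3 was 67.5% to 72.4% and 61.4% to 68.3%, with overlap. Cacna2d1 was 90.1% to 94.1% of the alpha2delta subunits in NeMO and 86.4% to 89.8% in Sham, without overlap. Ryr2 was 4.28% to 8.86% of the ryanodine receptors in NeMO and 11.8% to 24.1% in Sham, and Ryr3 was 87.8% to 92.9% and 70.0% to 85.3%, without overlap in either. Itpr1 was 62.5% to 66.3% of the IP3 receptors in NeMO and 57.1% to 62.8% in Sham, and overlapped. With exon-union lengths Itpr3 was the larger in Sham, at 50.2% against 45.8% for Itpr1. Shares within a family are not independent, and no test was made on them.

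**Figure D3:**
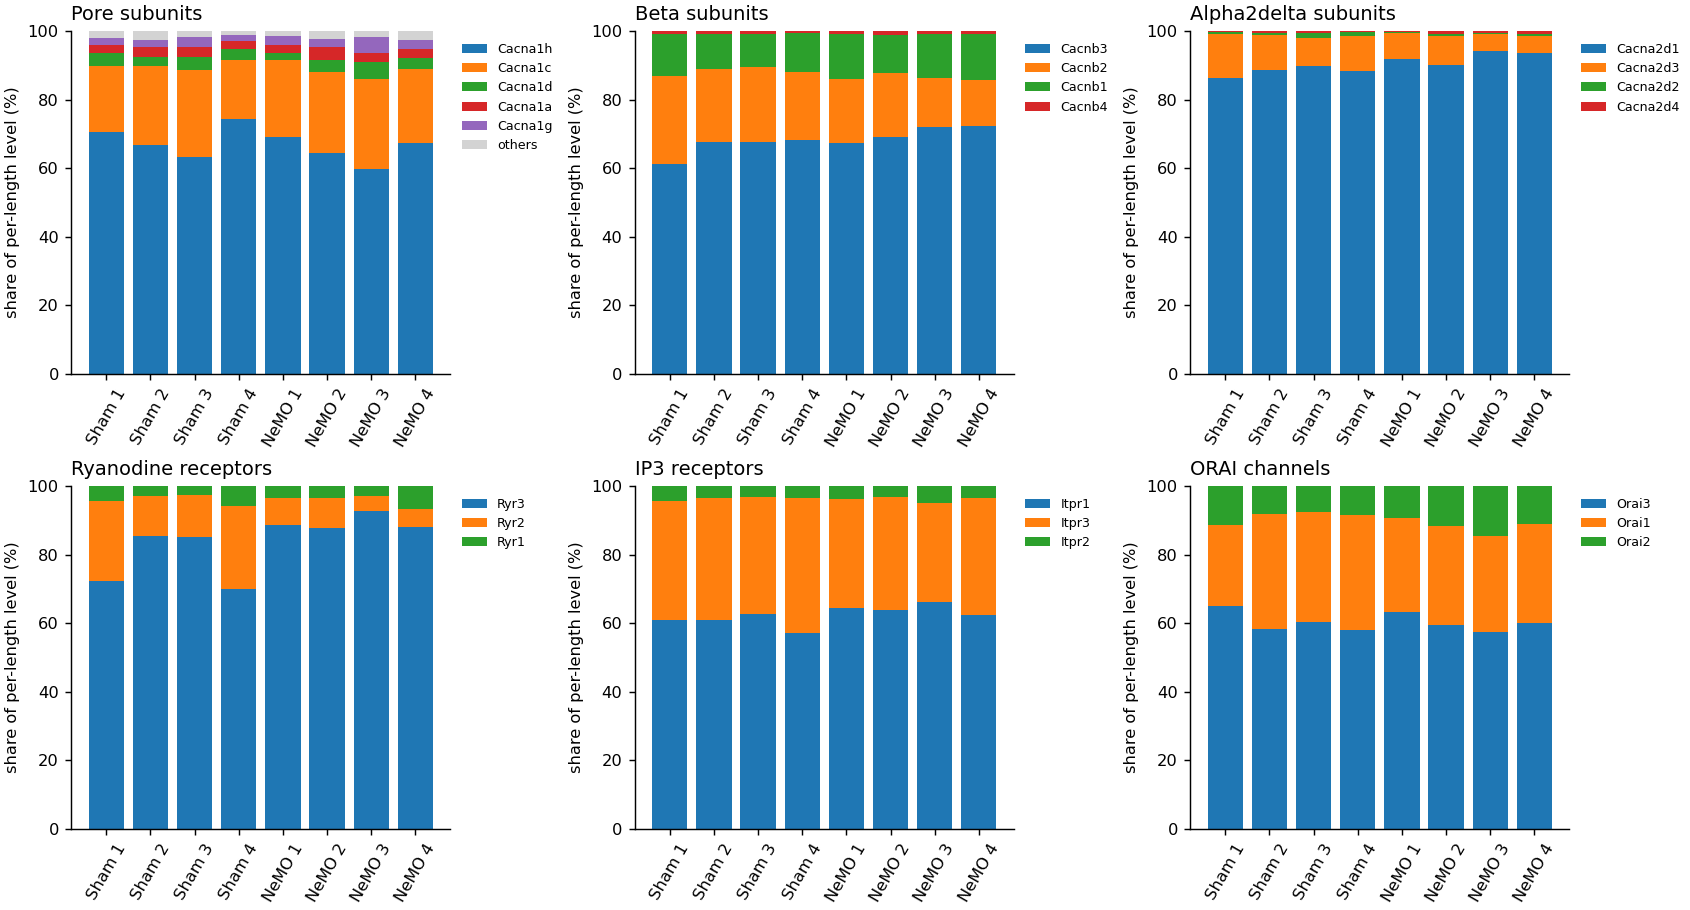
Share of the per-length level (%) taken by each gene in its family, stacked to 100, for the 8 libraries with Sham on the left and NeMO on the right of each panel. The Ryr2 segment is 4.28% to 8.86% in NeMO and 11.8% to 24.1% in Sham, and the Cacnb2 segment is 13.2% to 18.6% and 19.7% to 25.5%.

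Calcium channel genes have long transcripts, with a median longest transcript of 9658 nucleotides for pore genes and 3207 for all genes. When all genes were split into 8 bins of nearly equal size by length, the median log2 fold change was -0.16 among the shortest and 0.16 among the longest. After length and GC content were corrected for, the median of the pore genes was 0.21, that of the auxiliary genes 0.05 and that of the store genes -0.01, beside 0.01 for all genes. With it, 5 of 28 members had an unadjusted edgeR p under 0.05, as did 2141 of the 16184 genes tested with the correction. The 5 members were Cacna1g, Cacng7, Cacnb2 and Ryr2 as before, and Itpr3 (-0.18), in place of Cacna1c and Itpr1. Other members whose value shrank by over 1.5 times included Cacna2d1 (to 0.09), Itpr2 (to 0.08), Ryr3 (to 0.25) and Orai1 (to -0.14). Among members above 1 CPM, the corrected log2 fold changes farthest from 0 were those of Ryr2 (-1.37), Cacna1g (0.65), Cacnb2 (-0.56) and Cacng7 (0.46).

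**Figure D4:**
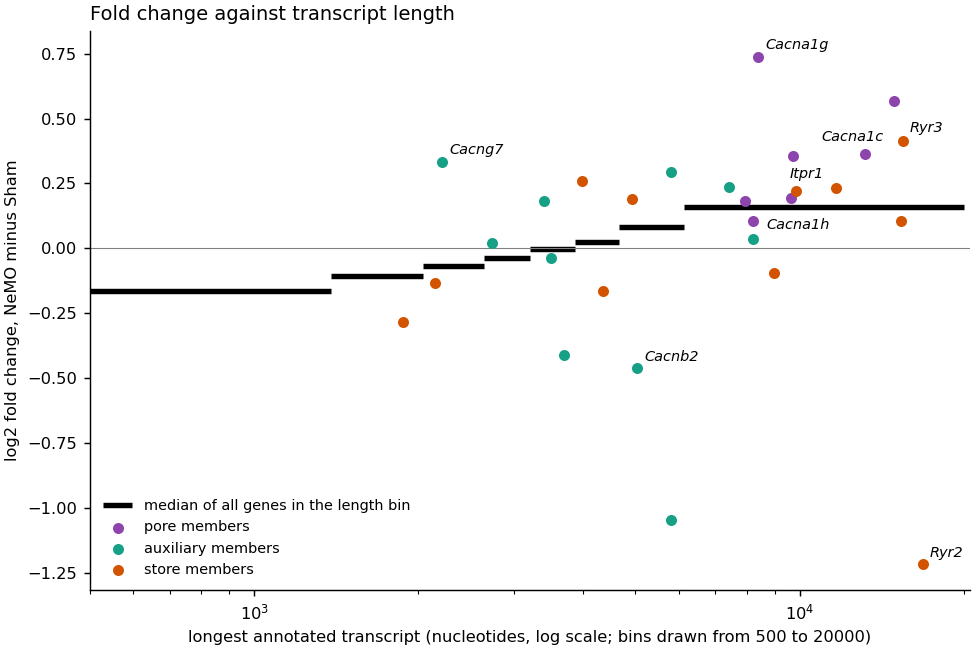
Log2 fold change of NeMO minus Sham against the longest annotated transcript (nucleotides, log scale) for the tested members. Black bars are the medians of all genes in 8 length bins, from -0.16 to 0.16. The longest bin, from 6134 nucleotides, has a median of 0.16 over all its genes and holds 15 of the members. Of these members, 13 are above 0 (up to 0.74, Cacna1g) and 2 below, Itpr3 at -0.09 and Ryr2 at -1.22.

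Partners of these channels were read from 6 lists: channel regulators, release channel partners, store entry partners, calcium sensors and kinases, genes upstream of release, and mitochondrial uptake. Of 84 symbols found, 82 were tested. By edgeR 0 of 82 passed, 18 (21.95%) had an unadjusted p under 0.05 against 18.5% of all genes, 11 higher and 7 lower, and DESeq2 called 5 higher and 0 lower (6.10%, against 5.82% of all genes). The groups did not overlap for 10 of 82 (12.2%, against 8.19% of all genes), 8 higher and 2 lower. Over the 82 the median log2 fold change was -0.04. The 3 mitochondrial uptake genes with an unadjusted p under 0.05, of 11 tested, were lower in NeMO, and the 3 channel regulators, of 12 tested, were higher. The release channel partners had 3 higher and 0 lower of 19, the store entry partners 2 and 2 of 8, the sensors and kinases 2 and 1 of 18, and the genes upstream of release 1 and 1 of 14.

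The 4 partners with the smallest p were all higher in NeMO. Akap5, which anchors protein kinase A and calcineurin beside the L-type channel, was at 17.4, 16.6, 22.2 and 14.9 CPM in NeMO and 13.02, 10.9, 13.4 and 6.68 CPM in Sham (log2 fold change 0.86 ± 0.16, edgeR adjusted p = 0.0730). Itpripl2, an IP3 receptor-interacting protein relative, was at 127 ± 11.4 CPM in NeMO and 104 ± 6.26 CPM in Sham (n = 4 each), and Nfatc3, a calcineurin-controlled transcription factor, at 78.8 ± 7.14 and 68.4 ± 1.74 CPM. Ahnak, a large scaffold that binds beta subunits, was at 1359 to 1591 CPM in NeMO and 1065 to 1256 CPM in Sham. The libraries of these 4 genes did not overlap between the groups, and their edgeR adjusted p-values ran from 0.0730 to 0.133. With the length and GC correction, the log2 fold change of Ahnak was 0.18 in place of 0.36 and that of Nfatc3 0.13 in place of 0.24, with edgeR adjusted p-values of 0.532 and 0.442.

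Triadin (Trdn), which links the ryanodine receptor to the store protein calsequestrin, was chosen after its values were seen, as were Casq2 and Jph2. Triadin was at 12.4, 7.91, 1.28 and 2.38 CPM in NeMO and at 25.7, 18.8, 29.96 and 12.4 CPM in Sham, with NeMO replicate 1 just below Sham replicate 4 (12.38 against 12.42 CPM). Its log2 fold change was -1.66 ± 0.72 (edgeR adjusted p = 0.285), and -2.66 without NeMO replicate 1. The muscle calsequestrin Casq2 was at 92.4 CPM in NeMO and 93.0 CPM in Sham, and the junctophilin Jph2, which ties the store to the membrane, at 408 and 487 CPM. Without NeMO replicate 1 the log2 fold change of Jph2 was -0.60 with an edgeR adjusted p of 0.0296, where with all libraries it was -0.29 with an adjusted p of 0.455. In that setting 652 of 16621 genes passed, against 12 of 16370 with all libraries.

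The bladder label held against its markers, with Myh11 at 8368 to 18650 CPM and Upk2 at 362 to 674 CPM in every library. Over the 57 genes tested from 9 marker lists, 0 passed edgeR. DESeq2 called 1 higher and 7 lower (14.0%, against 5.82% of all genes), and 1 higher and 12 lower had an unadjusted edgeR p under 0.05 (22.8%, against 18.5%). By direction, DESeq2 called 543 of the 16370 genes tested higher and 410 lower. At an unadjusted edgeR p under 0.05, 9.38% of all genes were higher and 9.14% lower. The 7 markers that DESeq2 called lower were 4 urothelial, 2 adipocyte and 1 neuronal, and the 1 called higher was a fibroblast marker. The urothelial, neuronal, Schwann cell and adipocyte markers were lower in NeMO for all members (6 of 6, 8 of 8, 6 of 6 and 5 of 5), and the fibroblast and endothelial markers higher for all (6 of 6 and 5 of 5), while smooth muscle markers were split, 3 higher and 5 lower. NeMO replicate 3 had the highest fibroblast sum (16481 CPM, against 6783 to 10370 CPM in the others) and the lowest neuronal sum (198 CPM). It also had the lowest smooth muscle (28592 CPM), Schwann cell (46.9 CPM) and adipocyte (324 CPM) sums and the highest endothelial sum (481 CPM). Its skeletal muscle, urothelial and leukocyte sums lay within the range of the other libraries. Whether these moved the members was not tested.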

How the data were processed

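The deposited files hold whole-number counts per gene symbol, which the authors made with Trimmomatic, STAR, featureCounts and DESeq2 on mm10, per the submitters' processing notes, without versions. For the annotation, the strand setting and multi-mapping reads, nothing was stated in the labels. The software was edgeR 4.0.16 (with limma 3.58.1), DESeq2 1.42.0 as an alternative, and R 4.3.3. Genes kept by filterByExpr (minimum count 10, minimum total 15) numbered 16370. They were TMM-scaled and tested with edgeR's quasi-likelihood F-test in a model of batch plus group. The test is two-sided, and its p-values were adjusted by Benjamini-Hochberg across every tested gene at a threshold of 0.05. CPM are counts on TMM-scaled libraries, and 1 CPM equals 26.3 to 36.2 reads per library on that scale. The exon lengths and coordinates come from GENCODE M21 (GRCm38, which is mm10), where 35656 symbols matched directly and 1754 through a synonym. Members with a mean of at least 1 CPM are named with every library's value, and of the partners the 4 with the smallest p. The members and lists were chosen with earlier results of these data known. The coefficient of biological variation was 0.186, and all library pairs within a group differed by more than sampling noise. Data were simulated 5 times over 16370 genes, with no batch effect and few genes changed. The test recovered 24.2% of genes changed by 0.5 on the log2 scale, 71.3% of those changed by 1 and 90.2% of those changed by 2. Alternatives were DESeq2, RLE scaling, no filter or a stricter filter, no batch term, each batch alone, the replicate number as a block, a length and GC correction, and leaving out each library. Exon-union lengths for the order of levels were added after seeing the data.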

Additional observations from a re-analysis of the deposited data

How the results depend on the processing

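Of the 24 members named with values, 18 kept the sign of their log2 fold change under all 17 alternatives and 6 did not. Genes past the edgeR threshold numbered 12, and 953 with DESeq2, 172 without the filter, 7 without the batch term, 0 in batch 1 alone (1756 at an unadjusted p under 0.05), 7 in batch 2 alone, and 0 to 652 with single libraries left out, the highest without NeMO replicate 1. Members past it numbered 0, and 3 with DESeq2 and 0 to 2 with single libraries left out. Partners past it numbered 0, and 5 with DESeq2, 1 without the filter (Akap5) and 0 to 6 with single libraries left out. Members with an unadjusted edgeR p under 0.05 numbered 4 to 8 over the alternatives, and 6 with all libraries, where 3032 of 16370 genes had such a p. The count of 4 was in batch 1 alone (1756 of 16744 genes). The count of 8 was without NeMO replicate 1 (3581 of 16621 genes), Sham replicate 1 (2807 of 16600) or Sham replicate 2 (2570 of 16633). The number of all genes with such a p thus moved between the alternatives too. The pore median was 0.21 with the length and GC correction and 0.25 to 0.49 with single libraries left out. The auxiliary median was -0.16 in batch 2 alone and -0.03 to 0.13 with single libraries left out. The store median was -0.016 in batch 1 alone, -0.012 with the length and GC correction and -0.10 to 0.21 with single libraries left out. The cause of these shifts was not tested.

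In batch 1 alone the log2 fold change was -0.079 for Cacna1b, -0.18 for Cacnb4, -0.025 for Ryr1, -0.38 for Cacna2d4, 0.66 for Cacng4 and 0.16 for Casq2. In batch 2 alone, whose lone Sham library is taken to have the spread of the other libraries, it was -0.15 for Cacna1h, -0.18 for Cacnb1 and -0.25 for Cacnb3. With the length and GC correction it was -0.13 for Cacnb4, -0.034 for Ryr1, 0.020 for Cacng4 and 0.022 for Casq2. With single libraries left out it ran from -0.079 to 0.64 for Cacna1b, -0.22 to 0.27 for Cacna1h, -0.056 to 0.17 for Cacnb3, -0.18 to 0.15 for Cacnb4, -0.10 to 0.33 for Ryr1, -0.38 to 0.84 for Cacna2d4, -0.29 to 0.66 for Cacng4 and -0.25 to 0.16 for Casq2. Leaving out Sham replicate 4 takes batch 2 out of the contrast and repeats batch 1.

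With the replicate block in place of batch, edgeR passed 0 genes (2648 at an unadjusted p under 0.05) and 0 members (6 unadjusted). Deviations of same-numbered libraries from their group means correlated at -0.01 to 0.32, and 2 of 4 numbers matched best with their own, so the numbers were not treated as pairing the samples. In simulation, with no batch effect and few genes changed, differences of 0.5 on the log2 scale were recovered for 24.2% of genes. The share recovered in the real data was not measured.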

Other observations

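Ratios of per-length levels within a family describe how the members stand to each other in each library, and were chosen after the data were seen. Ryr3 was 10.998, 9.92, 21.7 and 16.8 times Ryr2 in NeMO replicates 1 to 4, and 3.09, 7.24, 7.04 and 2.90 times Ryr2 in Sham replicates 1 to 4. Cacnb3 was 3.62 to 5.48 times Cacnb2 in NeMO and 2.41 to 3.46 times in Sham. Both ratios had no overlap between the groups. Itpr1 to Itpr3 was 1.83 to 2.31 in NeMO and 1.45 to 1.85 in Sham, and Stim1 to Stim2 was 3.80 to 6.27 and 5.68 to 8.11, which overlapped. Cacna1h to Cacna1c, the T-type against the L-type pore of the bladder, was 2.27 to 3.15 in NeMO and 2.46 to 4.30 in Sham, which also overlapped.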
